A study of Mus musculus with 17 samples.

Results

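Solute carriers of the renal proximal tubule were followed in kidney cortex RNA of mice labelled CCN2 KO or WT, 4 h after ischemia–reperfusion injury (IRI) or sham surgery. The set holds 49 genes of the 38293 in the deposited table. They were chosen by name as transporters of phosphate, sugars, organic acids, amino acids, organic ions and bicarbonate. Members are matched by name and not by a measured value, but the list was made with earlier results of these data known. All 49 names were found in the table. The 17 samples are 5 CCN2 KO IRI, 4 WT IRI, 4 CCN2 KO sham and 4 WT sham kidneys of male C57BL/6 mice, 12 to 14 weeks old when injections began. All animals carried floxed CCN2 alleles and a ubiquitous ROSA26 Cre that tamoxifen switches on. CCN2 KO mice received 4 injections of tamoxifen in corn oil over 7 days and WT mice corn oil alone, followed by 14 days of washout, so genotype and drug cannot be told apart. IRI was 25 min of clamping of both renal pedicles, and sham animals had the same operation without clamps. Kidneys are named by the code in their sample titles, such as 33D6.

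The proximal tubule reclaims most of the filtered sodium, phosphate, glucose, amino acids and bicarbonate. Carriers in its apical brush border take solutes up from the lumen, mostly along the sodium gradient that the basolateral sodium pump maintains, and basolateral carriers pass them on to the blood. A second set of carriers runs the other way and secretes organic anions and cations, drugs and toxins among them. The tubule changes along its length: early segments hold high-capacity carriers such as SGLT2, late segments high-affinity ones such as SGLT1. The cells depend on oxidative metabolism and are vulnerable to IRI, and loss of carrier expression is a known sign of tubular dedifferentiation.

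Values are log2 RPKM, reads scaled by transcript length and library size, which the authors quantile-normalized over samples, so a difference of 1 is a 2-fold change. The lowest value, −3.32, stands for 0.1 RPKM. The table holds no read totals, which leaves the depth of each kidney unknown. Of the 49 carriers, 48 exceeded 1 RPKM (log2 0) in at least 4 kidneys, as did 12608 genes of the table, and were tested with limma in 1 model of the 4 groups. A gene is called higher or lower when its p-value, adjusted by Benjamini-Hochberg over the 12608 genes, is under 0.05. Labels do not say more than that the samples are separate, so the p-values measure the spread between these samples. All IRI kidneys carry titles that start with 33, against 2 of 4 sham kidneys under each label, and the other sham titles start with 32. Libraries correlated with r from 0.915 to 0.961 within groups and from 0.856 to 0.953 between groups. Within the CCN2 KO sham group, 32B4 and 32B5 stood apart from each other in early tubule carriers, with Slc5a2 at 5.03 and 8.22. Carrier calls of CCN2 KO IRI over CCN2 KO sham that end without both are given without them too. Genes of other lists were not followed in that way.

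The targeted gene did not separate the labels. Ctgf, which encodes CCN2, was at 5.04, 3.75, 4.16, 4.33 and 3.86 in CCN2 KO IRI kidneys, against 4.95, 5.02, 4.41 and 3.92 in WT IRI kidneys. It was at 2.87, 2.95, 3.92 and 3.91 in CCN2 KO sham kidneys, against 2.65, 3.95, 3.91 and 4.26 in WT sham kidneys. The ranges overlapped in both pairs. Which part of the gene is floxed is not given in the sources used here, and transcript outside it would still be counted, so this RNA-seq level does not check the labels. Other measures of the gene in these mice were not used here, and CCN2 KO and WT stand for the labels throughout.

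Proximal tubule RNA was abundant. In WT sham kidneys the median carrier lay between log2 5.48 and 5.70, and 14 proximal tubule enzymes had a median between 8.96 and 9.13. Slc34a1, the main apical sodium phosphate carrier, was first with 11.27 ± 0.16 (SD, n = 4), a mean of 2470 RPKM. It was followed by Slc22a12, the apical urate carrier, at 9.57 ± 0.38, Slc22a6 at 8.61 ± 0.26 and Slc22a18 at 8.54 ± 0.08. Slc22a6 and Slc22a18 did not differ beyond their spread. At the low end stood Slc10a2 at 1.63 ± 1.13, Slc22a13 at 0.87 ± 1.27, Slc22a19 at 0.56 ± 0.67 and Slco4c1 at −2.09 ± 1.0 (SD, n = 4). Among the highest genes, quantile normalization gives kidneys in which a gene holds the same rank the same value, and Slc34a1 took only 7 distinct values in 17 kidneys.

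**Figure D1:**
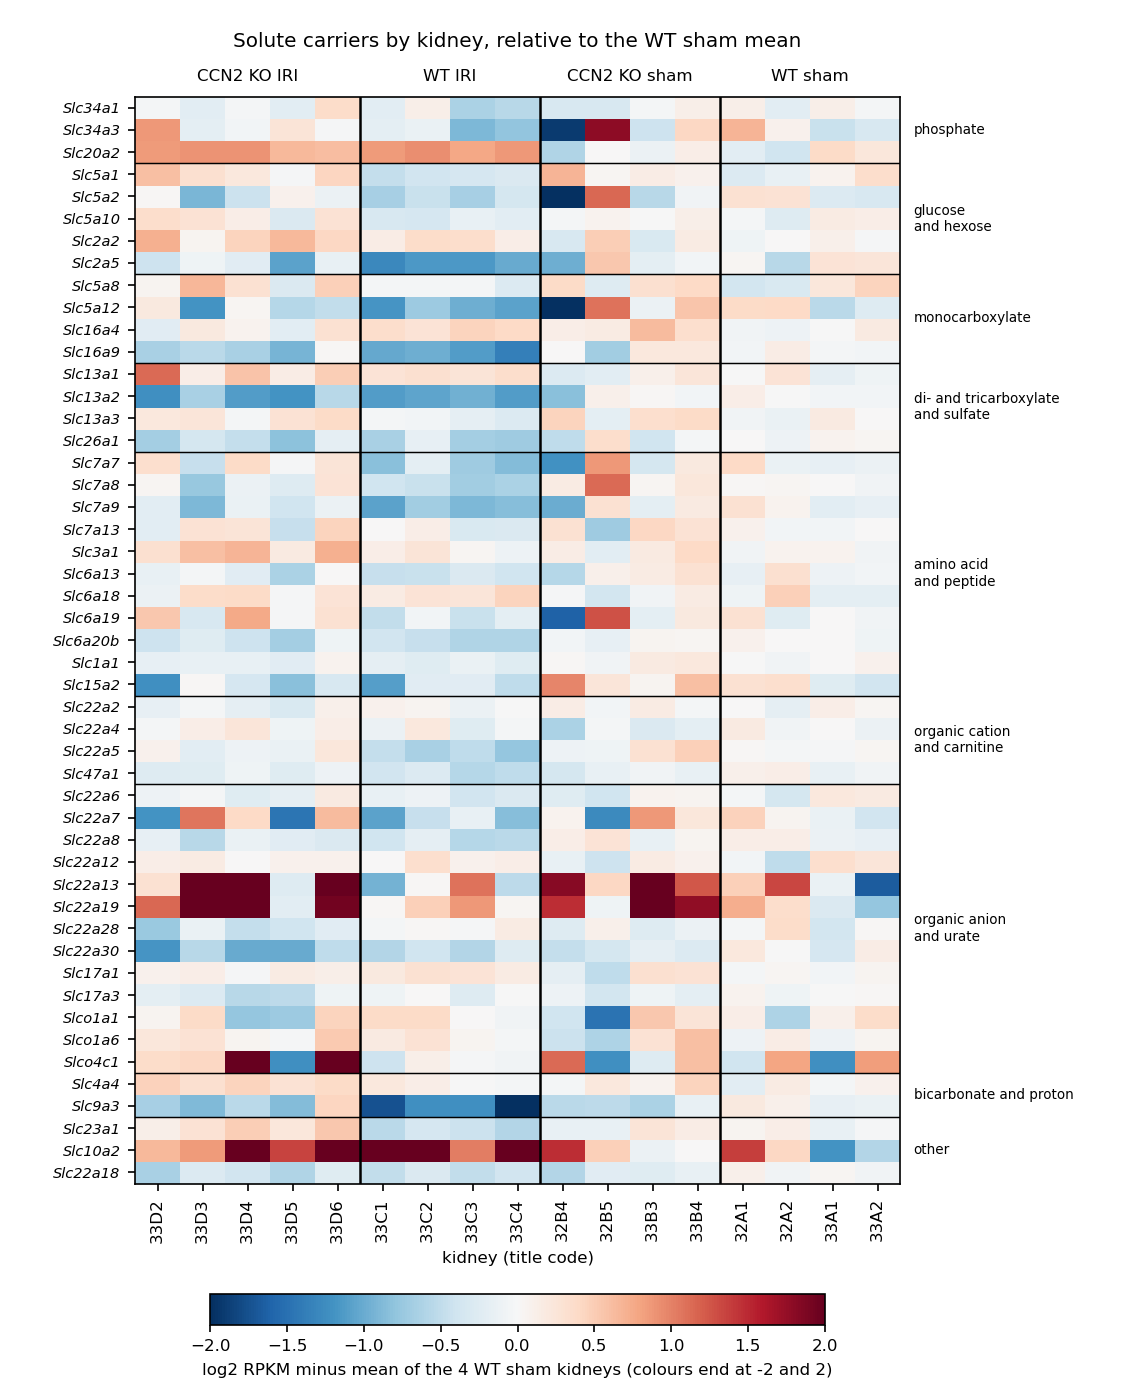
Log2 RPKM of the 49 carriers (rows, grouped by solute) in each of 17 kidneys (columns, grouped by label), minus the mean of the 4 WT sham kidneys. Blue is lower and red higher, with colours ending at −2 and 2. In WT IRI kidneys 33 of 48 tested carriers lay below WT sham on average, while the CCN2 KO sham kidneys 32B4 and 32B5 show opposite colours for Slc5a2, Slc5a12, Slc34a3, Slc6a19 and Slc7a7.

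IRI lowered more carriers than it raised in WT kidneys. In WT IRI over WT sham, 13 of 48 carriers were lower (27.1%) and 3 were higher, where 20.3% and 19.5% of all genes tested were. The median log2 difference of the carriers was −0.27, against −0.05 over all genes. Markers of several other cell types fell beside them. Lower in WT IRI than in WT sham were 6 of 8 collecting duct, 3 of 5 distal convoluted tubule and 3 of 7 thick ascending limb markers. So were 4 of 6 endothelial and 2 of 5 fibroblast markers. In contrast, 1 collecting duct and 3 of 5 leukocyte markers tested were higher, and no podocyte or erythrocyte marker was called. The 14 proximal tubule enzymes had a median of −0.06 with 3 lower. What part these shifts have in the carriers' falls was not tested. In cortex RNA, fewer proximal tubule cells and less RNA per cell cannot be told apart. In 19 carriers every WT IRI kidney lay below every WT sham kidney, and in 4 above, against 18.9% and 18.8% of all genes. Among CCN2 KO kidneys, 5 carriers were lower and 6 higher after IRI than after sham surgery, where 13.2% and 14.3% of all genes were, and the median was −0.01, against −0.02. Groups parted without overlap for 2 carriers that were lower and 1 that was higher, against 9.24% and 11.5% of all genes. Among CCN2 KO kidneys 5 of 8 collecting duct markers were also lower after IRI. So were 1 of 5 distal convoluted tubule, 1 of 7 thick ascending limb and 1 of 6 endothelial markers. Of 14 proximal tubule enzymes 2 were lower. No fibroblast, podocyte or erythrocyte marker was called, and 2 of 5 leukocyte markers tested were higher. The carriers' median in CCN2 KO IRI over CCN2 KO sham was −0.20 without the CCN2 KO sham kidneys 32B4 and 32B5, with 7 carriers lower and 2 higher.

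After IRI, no carrier was lower in CCN2 KO than in WT kidneys and 7 were higher, where 5.07% and 7.19% of all genes were. The median difference of the carriers, CCN2 KO IRI over WT IRI, was 0.20, against 0.02 over all genes, and 35 of 48 differences were above 0. Without overlap, 8 carriers were higher and 1, Slc22a28, lower in CCN2 KO IRI, against 10.1% and 7.24% of all genes. This comparison and WT IRI over WT sham share the WT IRI kidneys. In sham kidneys no carrier and no other gene was called in CCN2 KO over WT, 0% in each direction. The direct test of whether the IRI response differed between labels called no carrier, where 0.127% of genes had a higher and 0.0555% a lower response in CCN2 KO kidneys. Carriers ranged there from 1.52 for Slc9a3 to −0.66 for Slc16a4, with a median of 0.20, and at an unadjusted p under 0.05 stood 9 of 48, 8 of them positive, against 14.9% of all genes.

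The vitamin C carrier and the sodium proton exchanger had the lowest adjusted p in the difference of responses. Slc9a3, on chromosome 13 of GRCm38 from 74121457 to 74169442, encodes NHE3, the apical exchanger that reclaims sodium and drives bicarbonate uptake. Slc9a3 was at 3.03, 2.81, 3.15, 2.83 and 4.12 in CCN2 KO IRI kidneys, against 3.15, 3.17, 3.06 and 3.55 in CCN2 KO sham kidneys. Under WT, Slc9a3 was at 1.95, 2.47, 2.46 and 1.64 in IRI kidneys, against 3.88, 3.80, 3.53 and 3.56 in sham kidneys. The WT IRI kidneys lay below every kidney of the other 3 groups, and among CCN2 KO IRI kidneys 33D6 stood far above the other 4. Slc9a3 fell in WT IRI by 1.56 on the log2 scale (SE 0.25, adjusted p = 0.000123), and in CCN2 KO IRI over CCN2 KO sham its difference was −0.04 (SE 0.23, adjusted p = 0.91). After IRI it was higher in CCN2 KO than in WT kidneys by 1.06 (SE 0.23, adjusted p = 0.0122), a 2.08-fold level. In sham kidneys it averaged 3.23 ± 0.22 under CCN2 KO and 3.69 ± 0.17 under WT (SD, n = 4 each), with a difference of −0.46 (SE 0.25, adjusted p = 0.441). The difference of the responses was 1.52 with a 95% interval from 0.80 to 2.23, which missed the threshold (SE 0.34, adjusted p = 0.074). It passed in 3 of 26 alternatives, without 33D6 (1.28, adjusted p = 0.0385), without 33D3 and with sample weights. The call in CCN2 KO IRI over WT IRI was lost without WT IRI kidney 33C4 (adjusted p = 0.0566) and with no filter on low values (adjusted p = 0.0565).

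Slc23a1, the sodium-dependent apical carrier of ascorbate, lies on chromosome 18 from 35614604 to 35627244. Slc23a1 was at 5.61, 5.78, 5.99, 5.72 and 6.03 in CCN2 KO IRI kidneys, against 5.35, 5.34, 5.75 and 5.64 in CCN2 KO sham kidneys. Under WT, Slc23a1 was at 4.95, 5.15, 5.07 and 4.91 in IRI kidneys, against 5.54, 5.62, 5.34 and 5.47 in sham kidneys. All 5 CCN2 KO IRI kidneys were above all 4 WT IRI kidneys, and 3 of them above every sham kidney. It fell in WT IRI by 0.47 (SE 0.11, adjusted p = 0.00368) and rose in CCN2 KO IRI over CCN2 KO sham by 0.30 (SE 0.11, adjusted p = 0.0459). That rise was 0.13 without 32B4 and 32B5 (adjusted p = 0.513). The call was also lost when any of 32A1, 32B4, 32B5, 33A2, 33C1, 33C3, 33C4, 33D3, 33D4, 33D5 or 33D6 was left out. After IRI, Slc23a1 was 1.75-fold higher in CCN2 KO than in WT kidneys, by 0.81 (SE 0.11, adjusted p = 0.00117), and this call held in all 27 alternatives. The difference of the responses was 0.77, from 0.44 to 1.10, with an adjusted p just over the threshold (SE 0.16, adjusted p = 0.0524), and it passed in 6 of 26 alternatives. The gene shares 2584 bases with Paip2 on the opposite strand. The library kit is named as directional, but whether the counting used strand is not stated.

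**Figure D2:**
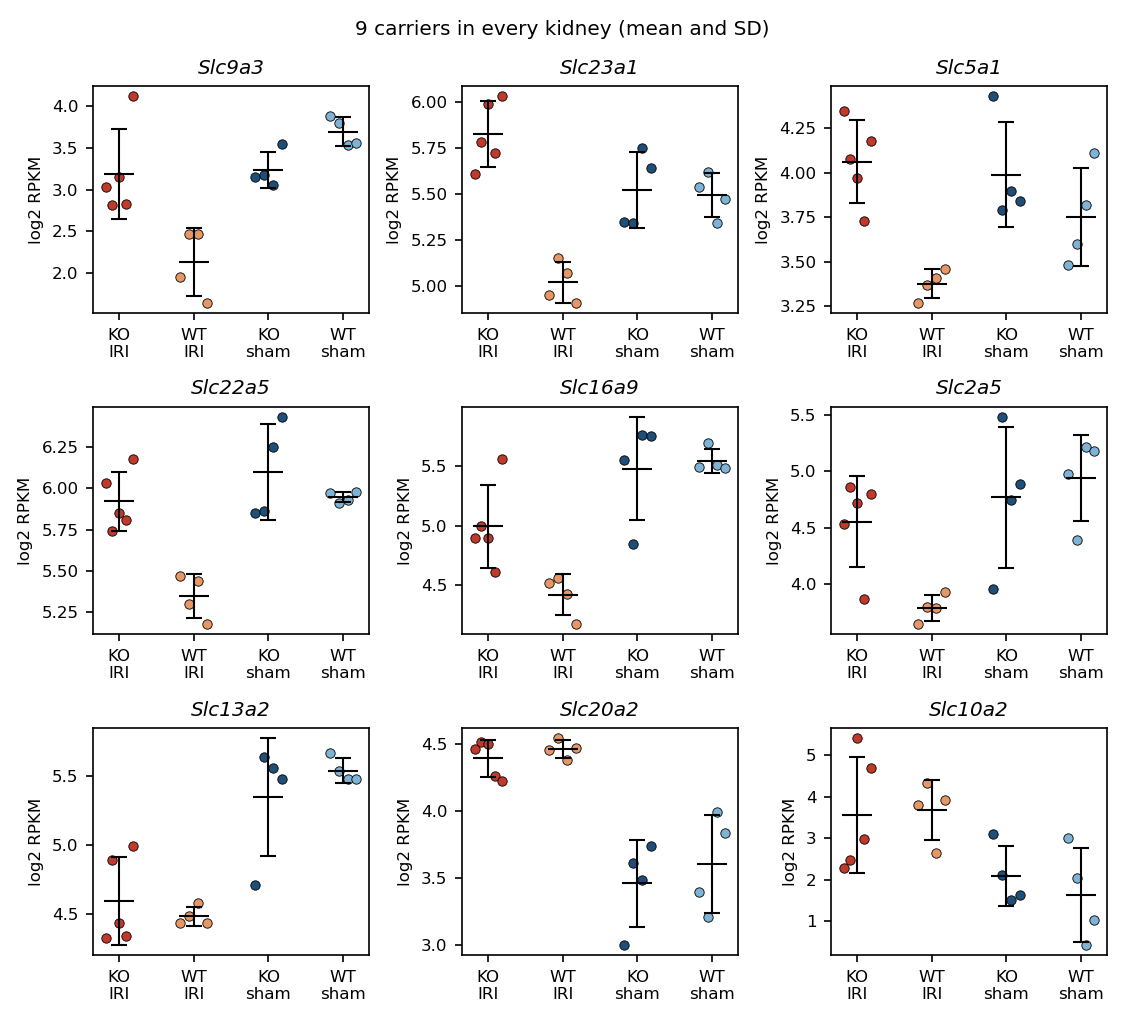
Log2 RPKM of 9 carriers in every kidney, in the order CCN2 KO IRI (n = 5), WT IRI, CCN2 KO sham and WT sham (n = 4 each); points are kidneys, bars the mean and SD, and each panel has its own scale. Slc9a3, Slc23a1, Slc5a1, Slc22a5, Slc16a9 and Slc2a5 were lowest in the WT IRI group, Slc13a2 was low in both IRI groups, and Slc20a2 and Slc10a2 averaged higher in both.

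Slc4a4 encodes the basolateral sodium bicarbonate cotransporter that completes the path opened by NHE3. Slc4a4 was at 6.22, 6.07, 6.20, 6.04 and 6.13 in CCN2 KO IRI kidneys, against 5.72, 5.96, 5.83 and 6.20 in CCN2 KO sham kidneys. Under WT, Slc4a4 was at 5.97, 5.89, 5.74 and 5.71 in IRI kidneys, against 5.54, 5.92, 5.72 and 5.84 in sham kidneys. Every CCN2 KO IRI kidney lay above every WT IRI kidney. The difference of 0.30 did not pass the test (SE 0.10, adjusted p = 0.0598) but did in 6 of 27 alternatives, among them prefix 33 alone (adjusted p = 0.0325) and without 32B4 and 32B5 (adjusted p = 0.0469). The change upon IRI passed under neither label, with 0.20 in CCN2 KO (SE 0.10, adjusted p = 0.148) and 0.07 in WT (SE 0.11, adjusted p = 0.616).

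Of 5 sugar carriers, 2 were higher in CCN2 KO IRI than in WT IRI, Slc5a1 and Slc5a10, and all 5 differences were positive. Slc5a2 encodes SGLT2, the low-affinity apical glucose carrier of the early tubule, and Slc5a1 encodes SGLT1, the high-affinity carrier of the late tubule. Slc5a1 was at 4.35, 4.08, 3.97, 3.73 and 4.18 in CCN2 KO IRI kidneys, against 4.43, 3.79, 3.90 and 3.84 in CCN2 KO sham kidneys. Under WT, Slc5a1 was at 3.27, 3.37, 3.41 and 3.46 in IRI kidneys, against 3.48, 3.60, 3.82 and 4.11 in sham kidneys. Slc5a1 was higher in CCN2 KO IRI than in WT IRI by 0.68 (SE 0.15, adjusted p = 0.0125), a 1.60-fold level, with no overlap. Only the fit with no filter on low values, which tests all genes of the table, lost that call (adjusted p = 0.0509). Upon IRI it did not pass the test under CCN2 KO (0.07) or WT (−0.37). Slc5a2 was at 7.09, 6.15, 6.64, 7.15 and 6.95 in CCN2 KO IRI kidneys, against 5.03, 8.22, 6.52 and 7.0 in CCN2 KO sham kidneys. Under WT, Slc5a2 was at 6.41, 6.63, 6.41 and 6.71 in IRI kidneys, against 7.38, 7.36, 6.79 and 6.74 in sham kidneys. Slc5a2 spanned 5.03 in 32B4 to 8.22 in 32B5 among CCN2 KO sham kidneys, and none of its comparisons passed. All WT IRI kidneys were below all WT sham kidneys, with a difference of −0.53 (SE 0.44, adjusted p = 0.363).

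Slc2a2 encodes GLUT2, the basolateral glucose exit. Slc2a2 was at 6.02, 5.36, 5.75, 5.95 and 5.72 in CCN2 KO IRI kidneys, against 4.98, 5.79, 4.99 and 5.47 in CCN2 KO sham kidneys. Under WT, Slc2a2 was at 5.45, 5.67, 5.66 and 5.44 in IRI kidneys, against 5.22, 5.31, 5.40 and 5.28 in sham kidneys. It rose in CCN2 KO IRI over CCN2 KO sham by 0.45 (SE 0.16, adjusted p = 0.0385), a call lost without 32B4, 33B3, 33D2, 33D4 or 33D5. Every WT IRI kidney lay above every WT sham kidney, by 0.25 on average, which did not pass (SE 0.16, adjusted p = 0.234). Slc2a5 encodes GLUT5, which carries fructose. Slc2a5 was at 4.53, 4.86, 4.72, 3.87 and 4.80 in CCN2 KO IRI kidneys, against 3.96, 5.48, 4.75 and 4.89 in CCN2 KO sham kidneys. Under WT, Slc2a5 was at 3.65, 3.80, 3.79 and 3.93 in IRI kidneys, against 4.98, 4.39, 5.22 and 5.18 in sham kidneys. Slc2a5 fell in WT IRI by 1.15 (SE 0.27, adjusted p = 0.0028), to 0.451 of its WT sham level, and its difference in CCN2 KO IRI over CCN2 KO sham was −0.21 (SE 0.25, adjusted p = 0.571). The 5 CCN2 KO IRI kidneys overlapped the WT IRI kidneys only through 33D5, at 3.87, and their difference of 0.77 did not pass (SE 0.25, adjusted p = 0.0582). It passed in 8 of 27 alternatives, without 33D5 among them (adjusted p = 0.0246). Slc5a10, an apical carrier of fructose and mannose, was higher in CCN2 KO IRI than in WT IRI by 0.40 (SE 0.12, adjusted p = 0.038), on a gene that overlaps Fam83g on the opposite strand. It was lost in 11 of 27 alternatives, among them leaving out 33C1, 33C2, 33C3, 33C4, 33D2, 33D3, 33D4 or 33D6.

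Of 3 phosphate carriers, Slc20a2 was called upon IRI under both labels and the others under neither. Slc34a1 was at 11.23, 11.06, 11.23, 11.06 and 11.64 in CCN2 KO IRI kidneys, against 10.95, 10.95, 11.23 and 11.39 in CCN2 KO sham kidneys. Under WT, Slc34a1 was at 11.06, 11.39, 10.64 and 10.71 in IRI kidneys, against 11.39, 11.06, 11.39 and 11.23 in sham kidneys. Slc34a1 passed in no comparison, with −0.32 in WT IRI over WT sham (SE 0.17, adjusted p = 0.16) and 0.11 in CCN2 KO IRI over CCN2 KO sham (SE 0.16, adjusted p = 0.65). Slc34a3, the second apical phosphate carrier, ranged from 1.47 in 32B4 to 5.18 in 32B5 and was not called. Slc20a2, a phosphate carrier of another family that most cells express, rose under both labels. Slc20a2 was at 4.46, 4.51, 4.50, 4.26 and 4.22 in CCN2 KO IRI kidneys, against 3.0, 3.61, 3.48 and 3.74 in CCN2 KO sham kidneys. Under WT, Slc20a2 was at 4.45, 4.54, 4.38 and 4.47 in IRI kidneys, against 3.39, 3.21, 3.99 and 3.83 in sham kidneys. Every IRI kidney was above every sham kidney. It rose by 0.93 in CCN2 KO IRI (SE 0.16, adjusted p = 0.000551) and by 0.86 in WT IRI (SE 0.17, adjusted p = 0.000664), in all 27 alternatives of each, and the responses differed by 0.07 (SE 0.23, adjusted p = 0.912).

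Carriers of di- and monocarboxylates held some of the largest falls. Slc13a2 encodes the apical carrier of citrate and succinate. Slc13a2 was at 4.32, 4.89, 4.43, 4.34 and 4.99 in CCN2 KO IRI kidneys, against 4.71, 5.64, 5.56 and 5.48 in CCN2 KO sham kidneys. Under WT, Slc13a2 was at 4.43, 4.48, 4.58 and 4.43 in IRI kidneys, against 5.67, 5.54, 5.48 and 5.48 in sham kidneys. It fell by 0.75 in CCN2 KO IRI (SE 0.17, adjusted p = 0.0045) and by 1.06 in WT IRI (SE 0.18, adjusted p = 0.000243), both in all 27 alternatives. WT IRI kidneys were all below WT sham kidneys, while in CCN2 KO kidneys the sham sample 32B4, at 4.71, lay within the IRI range. Slc13a1 encodes the apical sulfate carrier. Slc13a1 was at 6.70, 5.70, 6.15, 5.72 and 6.06 in CCN2 KO IRI kidneys, against 5.30, 5.37, 5.67 and 5.81 in CCN2 KO sham kidneys. Under WT, Slc13a1 was at 5.85, 5.90, 5.83 and 5.92 in IRI kidneys, against 5.57, 5.85, 5.39 and 5.49 in sham kidneys. Slc13a1 rose in CCN2 KO IRI by 0.53 (SE 0.17, adjusted p = 0.0282), a call lost without 32B4, 32B5, 33D2 or 33D4. Without both 32B4 and 32B5 the rise was 0.33 (adjusted p = 0.313). In WT IRI its difference was 0.30 (SE 0.18, adjusted p = 0.199). Of the other members of this class, Slc26a1, the basolateral exchanger of sulfate and oxalate, fell in WT IRI by 0.55 (SE 0.18, adjusted p = 0.0192). That call was lost without 33C1, 33C3 or 33C4 (adjusted p up to 0.0548) and with no filter on low values (adjusted p = 0.0825). All of Slc26a1 lies within Idua on the opposite strand. Slc13a3, the basolateral dicarboxylate carrier that feeds the organic anion exchangers, was not called in any comparison, although its difference of 0.35 in CCN2 KO IRI over WT IRI passed in 6 of 27 alternatives.

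Slc16a9, a monocarboxylate family member linked to carnitine export, was among the largest falls. Slc16a9 was at 4.90, 5.0, 4.90, 4.61 and 5.56 in CCN2 KO IRI kidneys, against 5.55, 4.85, 5.76 and 5.75 in CCN2 KO sham kidneys. Under WT, Slc16a9 was at 4.52, 4.56, 4.43 and 4.18 in IRI kidneys, against 5.49, 5.69, 5.51 and 5.48 in sham kidneys. It fell in WT IRI by 1.12 (SE 0.19, adjusted p = 0.00026), with no overlap and in all 27 alternatives. Among CCN2 KO kidneys the difference upon IRI was −0.48 and did not pass (SE 0.18, adjusted p = 0.0602). After IRI it was higher in CCN2 KO than in WT kidneys by 0.58 (SE 0.18, adjusted p = 0.0495), with no overlap. That call was close to the threshold, and 18 of 27 alternatives lost it, with adjusted p up to 0.193. Leaving out any of 32A1, 32A2, 32B4, 33A1, 33A2, 33B3, 33B4, 33C1, 33C2, 33C3, 33C4, 33D2, 33D3, 33D4 or 33D6 ended it. Slc16a4, of the same family, moved the other way. Slc16a4 was at 3.96, 4.39, 4.26, 3.98 and 4.49 in CCN2 KO IRI kidneys, against 4.32, 4.35, 4.82 and 4.53 in CCN2 KO sham kidneys. Under WT, Slc16a4 was at 4.54, 4.46, 4.64 and 4.58 in IRI kidneys, against 4.12, 4.09, 4.18 and 4.36 in sham kidneys. It rose in WT IRI by 0.37 (SE 0.13, adjusted p = 0.0314), a call that 9 of 27 alternatives lost, leaving out 32A1, 32A2, 33A1, 33C1, 33C3 or 33C4 among them. With title prefix 33 alone the WT rise was 0.28 (adjusted p = 0.159), and with prefix as a covariate 0.24 (adjusted p = 0.162). Among CCN2 KO kidneys its difference upon IRI was −0.29 (SE 0.12, adjusted p = 0.0898), and the difference of responses, −0.66, did not pass (SE 0.18, adjusted p = 0.11) except with sample weights (adjusted p = 0.0347). The sodium-coupled lactate carriers Slc5a8 and Slc5a12 were not called in any comparison. For Slc5a12 every WT IRI kidney lay below every WT sham kidney, by 0.99 on average.

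**Figure D3:**
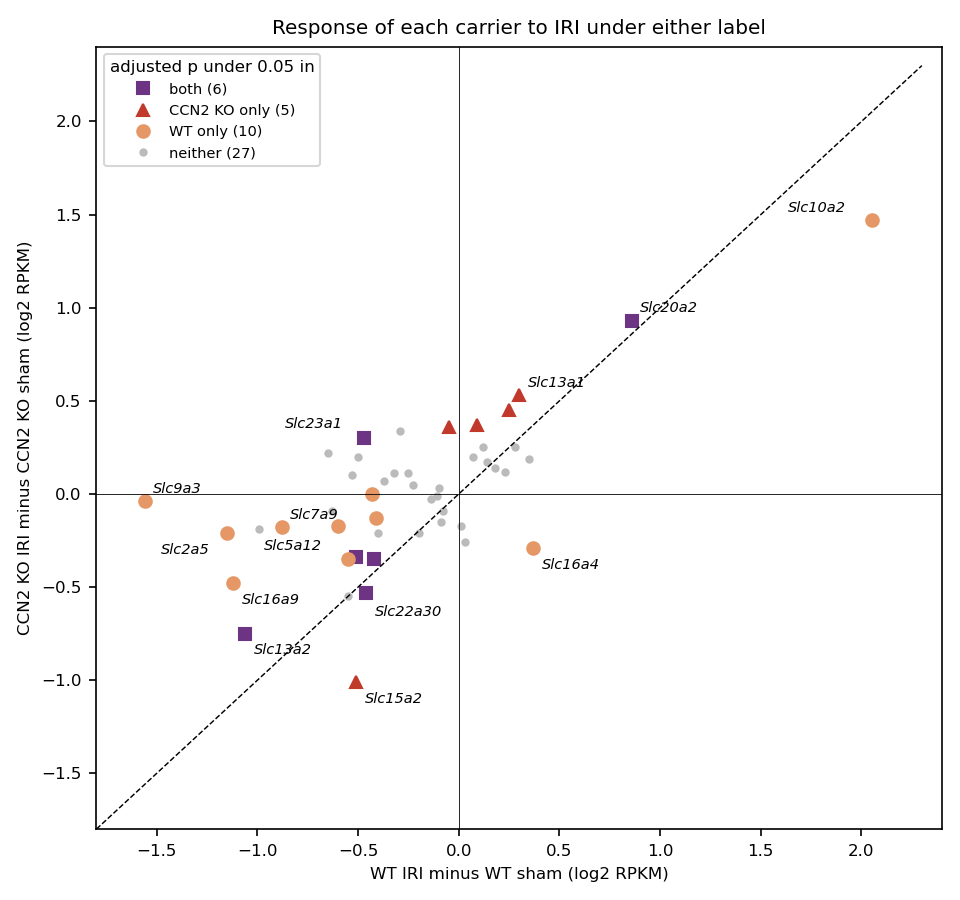
Log2 difference of each of 48 carriers upon IRI in CCN2 KO kidneys (vertical) against that in WT kidneys (horizontal), with the dashed line of equal response; symbols give the label under which the adjusted p is under 0.05. Called were 6 carriers under both labels, 5 under CCN2 KO only and 10 under WT only. Slc23a1 was called in opposite directions, and Slc9a3, at −0.04 and −1.56, lies farthest from the line.

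Among amino acid and peptide carriers, IRI lowered Slc7a9 and Slc6a20b in WT and Slc15a2 and Slc6a20b in CCN2 KO kidneys. Slc7a9 is the light subunit of the apical cystine and dibasic amino acid exchanger and Slc3a1 its heavy subunit, and mutations of either cause cystinuria. Slc7a9 was at 5.68, 4.98, 5.75, 5.48 and 5.77 in CCN2 KO IRI kidneys, against 4.90, 6.19, 5.69 and 6.06 in CCN2 KO sham kidneys. Under WT, Slc7a9 was at 4.82, 5.19, 4.99 and 5.03 in IRI kidneys, against 6.19, 5.95, 5.68 and 5.72 in sham kidneys. Slc7a9 fell in WT IRI by 0.88 (SE 0.23, adjusted p = 0.00609) with no overlap, and its difference in CCN2 KO IRI over CCN2 KO sham was −0.18 (SE 0.22, adjusted p = 0.587). Slc3a1 was at 7.73, 8.02, 8.10, 7.59 and 8.12 in CCN2 KO IRI kidneys, against 7.56, 7.21, 7.60 and 7.81 in CCN2 KO sham kidneys. Under WT, Slc3a1 was at 7.54, 7.68, 7.45 and 7.32 in IRI kidneys, against 7.35, 7.48, 7.49 and 7.34 in sham kidneys. Slc3a1 was higher in CCN2 KO IRI than in WT IRI by 0.41 (SE 0.13, adjusted p = 0.0461), and higher than in CCN2 KO sham by 0.37 (SE 0.13, adjusted p = 0.0425), with overlap in both. The first of these calls was lost in 14 of 27 alternatives and the other in 17. Omitting 32A1, 32B4, 33A1, 33A2, 33B3, 33C1, 33C3, 33C4, 33D3, 33D4 or 33D6 ended the first, and omitting 32A1, 32B4, 32B5, 33A2, 33B3, 33C1, 33C3, 33D3, 33D4 or 33D6 the other. Without both 32B4 and 32B5 the rise over CCN2 KO sham was 0.21 (adjusted p = 0.362). Slc3a1 shares 767 bases with Prepl on the opposite strand. In WT IRI over WT sham Slc3a1 differed by 0.09 (SE 0.14, adjusted p = 0.632).

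Slc15a2 encodes the high-affinity peptide carrier of the late tubule. Slc15a2 was at 2.14, 3.39, 3.02, 2.52 and 3.04 in CCN2 KO IRI kidneys, against 4.34, 3.60, 3.42 and 3.96 in CCN2 KO sham kidneys. Under WT, Slc15a2 was at 2.26, 3.14, 3.14 and 2.85 in IRI kidneys, against 3.66, 3.69, 3.12 and 2.97 in sham kidneys. It fell in CCN2 KO IRI by 1.01 (SE 0.26, adjusted p = 0.00919), to 0.497 of the CCN2 KO sham level, with every IRI kidney below every sham kidney. Without both 32B4 and 32B5 the difference was −0.87 (adjusted p = 0.0849). In WT IRI it was −0.51 (SE 0.27, adjusted p = 0.151), and the responses differed by −0.50 (SE 0.38, adjusted p = 0.569). Slc6a19 encodes the main apical carrier of neutral amino acids. Slc6a19 was at 6.15, 5.29, 6.36, 5.59 and 5.92 in CCN2 KO IRI kidneys, against 3.99, 6.88, 5.41 and 5.80 in CCN2 KO sham kidneys. Under WT, Slc6a19 was at 5.12, 5.56, 5.16 and 5.42 in IRI kidneys, against 5.92, 5.36, 5.62 and 5.54 in sham kidneys. It passed in no comparison. Slc6a20b, of the same family as the imino acid carrier, fell by 0.34 in CCN2 KO IRI (SE 0.10, adjusted p = 0.0193) and by 0.51 in WT IRI (SE 0.11, adjusted p = 0.00107). The CCN2 KO call was lost without 33B3 (adjusted p = 0.0535), with its own groups alone (adjusted p = 0.0631) and with no filter (adjusted p = 0.0525). The other members of the class, Slc7a7, Slc7a8, Slc7a13, Slc6a13, Slc6a18 and Slc1a1, were not called in any comparison. Their differences in CCN2 KO IRI over WT IRI ran from −0.11 for Slc6a18 to 0.74 for Slc7a7. Slc7a8, an exit path for neutral amino acids, came closest upon IRI, at −0.55 under each label (adjusted p = 0.0518 in CCN2 KO and 0.0508 in WT).

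Of 4 organic cation carriers, 2 fell in WT IRI. Slc22a5 encodes the sodium-dependent carnitine carrier. Slc22a5 was at 6.03, 5.74, 5.85, 5.81 and 6.18 in CCN2 KO IRI kidneys, against 5.85, 5.86, 6.25 and 6.43 in CCN2 KO sham kidneys. Under WT, Slc22a5 was at 5.47, 5.30, 5.44 and 5.18 in IRI kidneys, against 5.97, 5.91, 5.93 and 5.98 in sham kidneys. Slc22a5 fell in WT IRI by 0.60 (SE 0.13, adjusted p = 0.00142) with no overlap. Among CCN2 KO kidneys its difference upon IRI was −0.17 (SE 0.12, adjusted p = 0.307). After IRI it was 1.49-fold higher in CCN2 KO than in WT kidneys, by 0.58 (SE 0.12, adjusted p = 0.0096), with no overlap and in all 27 alternatives. Slc47a1 encodes the apical proton exchanger that secretes organic cations, and Slc22a2 the basolateral carrier that loads them. Slc47a1 was at 7.86, 7.88, 8.03, 7.88 and 8.02 in CCN2 KO IRI kidneys, against 7.77, 7.96, 8.04 and 7.96 in CCN2 KO sham kidneys. Under WT, Slc47a1 was at 7.73, 7.84, 7.55 and 7.60 in IRI kidneys, against 8.21, 8.24, 7.97 and 8.04 in sham kidneys. Slc47a1 fell in WT IRI by 0.43 (SE 0.09, adjusted p = 0.00137) with no overlap and differed by 0.00 in CCN2 KO IRI over CCN2 KO sham (SE 0.09, adjusted p = 0.997). Every CCN2 KO IRI kidney was above every WT IRI kidney, by 0.25 on average, which did not pass (SE 0.09, adjusted p = 0.0647) but did in 3 of 27 alternatives. Slc22a2 was at 7.22, 7.35, 7.20, 7.08 and 7.48 in CCN2 KO IRI kidneys, against 7.53, 7.32, 7.54 and 7.34 in CCN2 KO sham kidneys. Under WT, Slc22a2 was at 7.47, 7.44, 7.27 and 7.38 in IRI kidneys, against 7.39, 7.21, 7.51 and 7.42 in sham kidneys. Slc22a2 was not called. Its differences were between −0.17 and 0.05 in the 4 comparisons of groups. Slc22a4, the ergothioneine carrier, was higher in CCN2 KO IRI than in CCN2 KO sham by 0.36 (SE 0.12, adjusted p = 0.0346), a call lost in 10 of 27 alternatives, among them leaving out 32B4, 33B3, 33D3, 33D4 or 33D6. Without both 32B4 and 32B5 it was 0.31 (adjusted p = 0.112).

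The organic anion and urate class was the largest, with 13 members, and its medians lay near 0. Its 12 tested members had a median difference of −0.02 in CCN2 KO IRI over CCN2 KO sham, −0.02 in WT IRI over WT sham and 0.02 in CCN2 KO IRI over WT IRI. Slc22a6 and Slc22a8 encode the basolateral exchangers that take up organic anions, many drugs included, for secretion. Slc22a6 was at 8.51, 8.57, 8.37, 8.43 and 8.80 in CCN2 KO IRI kidneys, against 8.38, 8.21, 8.69 and 8.67 in CCN2 KO sham kidneys. Under WT, Slc22a6 was at 8.46, 8.51, 8.23 and 8.32 in IRI kidneys, against 8.57, 8.27, 8.82 and 8.80 in sham kidneys. Slc22a6 passed in no comparison. Slc22a8 was at 7.88, 7.49, 7.91, 7.81 and 7.76 in CCN2 KO IRI kidneys, against 8.17, 8.31, 7.90 and 8.10 in CCN2 KO sham kidneys. Under WT, Slc22a8 was at 7.65, 7.87, 7.47 and 7.51 in IRI kidneys, against 8.18, 8.18, 7.93 and 7.88 in sham kidneys. Slc22a8 fell by 0.35 in CCN2 KO IRI (SE 0.11, adjusted p = 0.0333) and by 0.42 in WT IRI (SE 0.12, adjusted p = 0.0114). The CCN2 KO call was lost without 32B4, 32B5, 33B4 or 33D3, and without both 32B4 and 32B5 the difference was −0.23 (adjusted p = 0.297). Among kidneys with title prefix 33 alone the differences were −0.23 (adjusted p = 0.254) and −0.28 (adjusted p = 0.13).

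Slc22a30, a rodent member of the family on chromosome 19 from 8335371 to 8405111, fell under both labels. Slc22a30 was at 4.53, 5.16, 4.71, 4.70 and 5.20 in CCN2 KO IRI kidneys, against 5.24, 5.36, 5.53 and 5.44 in CCN2 KO sham kidneys. Under WT, Slc22a30 was at 5.12, 5.31, 5.12 and 5.46 in IRI kidneys, against 5.92, 5.70, 5.37 and 5.86 in sham kidneys. It fell by 0.53 in CCN2 KO IRI with no overlap (SE 0.14, adjusted p = 0.0126) and by 0.46 in WT IRI with overlap (SE 0.15, adjusted p = 0.0242). Within prefix 33 the WT difference was −0.36 (adjusted p = 0.17), and that call was also lost without 32A1, 33A2, 33C1 or 33C3. Slc22a19, Slc22a28 and Slc22a30 are close relatives on chromosome 19, so reads they share could be split or dropped by the counting. Slc22a28 differed by −0.43 in CCN2 KO IRI over WT IRI, without overlap and just short of the threshold (SE 0.14, adjusted p = 0.0518). Slco1a1 encodes an apical carrier of organic anions and steroid conjugates. Slco1a1 was at 5.66, 6.0, 4.83, 4.88 and 6.06 in CCN2 KO IRI kidneys, against 5.21, 4.14, 6.15 and 5.87 in CCN2 KO sham kidneys. Under WT, Slco1a1 was at 5.99, 6.0, 5.61 and 5.54 in IRI kidneys, against 5.75, 5.0, 5.71 and 5.98 in sham kidneys. It varied widely, with 4.14 in 32B5 and 6.15 in 33B3 of the same group, and was not called. Slc22a12, Slc22a7, Slc22a13, Slc22a19, Slc17a1, Slc17a3 and Slco1a6 were not called either. Slc22a13 lies wholly within Slc22a14 on the same strand, so its reads may be ambiguous, and all of Slc22a12 overlaps Nrxn2 on the opposite strand. The class ran from −0.43 for Slc22a28 to 1.46 for Slc22a13 in CCN2 KO IRI over WT IRI.

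Slco4c1, the basolateral carrier of digoxin in humans, was at or near the floor of the table. Slco4c1 was at −1.72, −1.67, 0.03, −3.32 and 0.10 in CCN2 KO IRI kidneys, against −0.96, −3.32, −2.35 and −1.49 in CCN2 KO sham kidneys. Under WT, Slco4c1 was at −2.50, −1.97, −2.11 and −2.16 in IRI kidneys, against −2.48, −1.30, −3.32 and −1.25 in sham kidneys. It reached −3.32 in 33D5, 32B5 and 33A1 and exceeded 1 RPKM only in 33D4 and 33D6, so it was not tested and no fold is given.

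Slc10a2 encodes the apical sodium bile acid carrier. Slc10a2 was at 2.28, 2.48, 5.41, 2.98 and 4.70 in CCN2 KO IRI kidneys, against 3.11, 2.11, 1.52 and 1.64 in CCN2 KO sham kidneys. Under WT, Slc10a2 was at 3.81, 4.33, 2.66 and 3.92 in IRI kidneys, against 3.01, 2.04, 0.44 and 1.04 in sham kidneys. It rose in WT IRI by 2.05 (SE 0.67, adjusted p = 0.0217), the largest rise of the set, although WT IRI and WT sham kidneys overlapped through 33C3 and 32A1. The call was lost without 33A1, 33A2 or 33C2 (adjusted p = 0.0748, 0.0579 and 0.0611). In CCN2 KO IRI the difference was 1.47 (SE 0.63, adjusted p = 0.0935), with 33D4 and 33D6 high and the other 3 kidneys within the sham range, and passed in 2 of 27 alternatives. Slc22a18, a highly expressed family member whose solute is not settled, fell in WT IRI by 0.41 (SE 0.11, adjusted p = 0.00779) with no overlap. In the sham comparison it was, with Slc17a3, among the 2 carriers whose CCN2 KO kidneys all lay below the WT kidneys, by 0.30 (SE 0.11, adjusted p = 0.298), where 2.52% of all genes did so and 2.19% lay above.

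**Figure D4:**
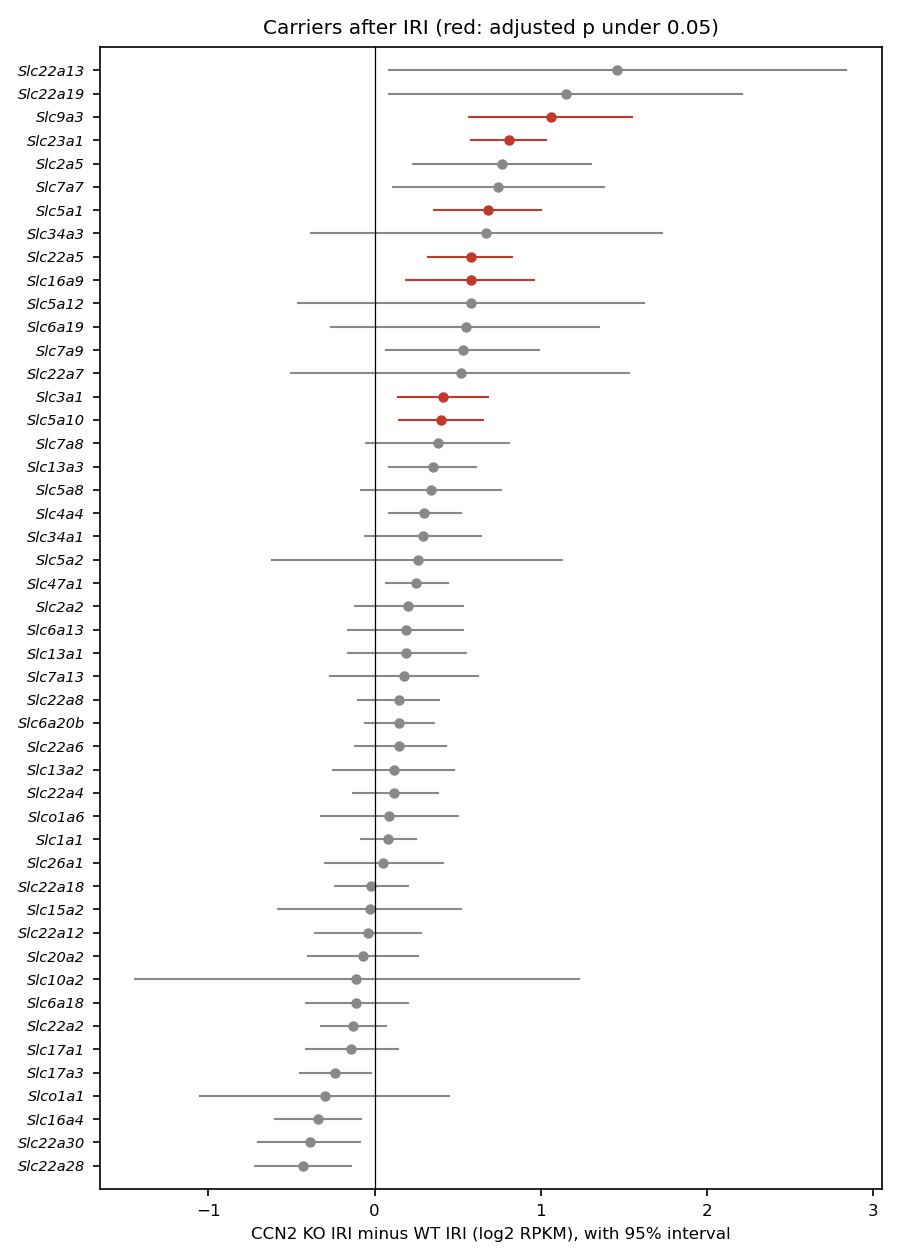
Log2 difference of each of 48 tested carriers between CCN2 KO IRI (n = 5) and WT IRI (n = 4) kidneys, ordered by size; points are differences, lines their 95% intervals, and red marks an adjusted p under 0.05. The 7 red carriers lie between 0.40 for Slc5a10 and 1.06 for Slc9a3. Slc22a13 and Slc22a19, at 1.46 and 1.15, have wide intervals and were not called.

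By side of the cell, 6 of 27 apical carriers and none of 10 basolateral carriers tested were higher in CCN2 KO IRI than in WT IRI, with medians of 0.26 and 0.20, where 7.19% of all genes were higher. In WT IRI over WT sham 8 apical and 2 basolateral carriers were lower, where 20.3% of all genes were, and both medians were −0.32. Whether the sides differ was not tested.

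Kidneys of the same group differed in the balance of early and late carriers. The 9 carriers known from early segments (Slc5a2, Slc5a12, Slc2a2, Slc7a7, Slc7a8, Slc6a19, Slc4a4, Slc22a6 and Slc22a8) and the 9 from late ones (Slc5a1, Slc5a8, Slc5a10, Slc7a13, Slc22a7, Slc22a13, Slc6a18, Slc1a1 and Slc15a2) were averaged in each kidney. The early mean minus the late mean was −0.05 in 32B4 and 2.14 in 32B5, both CCN2 KO sham, and 0.61 and 1.09 in 33B3 and 33B4. Among CCN2 KO IRI kidneys it was 1.66, 0.25, 0.99, 1.65 and 0.86. WT kidneys were tighter, at 1.28, 1.22, 0.80 and 1.13 after IRI and 1.33, 1.14, 1.20 and 1.35 after sham surgery. The SD was 0.59 in CCN2 KO IRI (n = 5), 0.21 in WT IRI, 0.92 in CCN2 KO sham and 0.10 in WT sham (n = 4 each). The group means, 1.08, 1.11, 0.95 and 1.25 in that order, lay closer together than kidneys within the CCN2 KO groups. Most single genes show it between 32B4 and 32B5, but not all. Among the early carriers only Slc22a6 went the other way, at 8.38 in 32B4 and 8.21 in 32B5. Among the late ones only Slc5a10 did, at 6.43 in 32B4 and 6.54 in 32B5. In 32B4 the early carrier Slc5a12 was at 2.51, against 5.97 in 32B5, and Slc6a19 at 3.99, against 6.88. The late carrier Slc22a7 was at 5.37 in 32B4 and 4.03 in 32B5, and at 4.10 and 3.84 in 33D2 and 33D5, against 6.37, 5.69 and 5.93 in the other CCN2 KO IRI kidneys. What part this balance has in the comparisons above was not tested. Without 32B4 and 32B5, a choice made after their values were seen, the count called in CCN2 KO IRI over WT IRI was 12 higher and 1 lower. The shares of all genes called in that fit are not given, so this count does not single out the carriers.

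**Figure D5:**
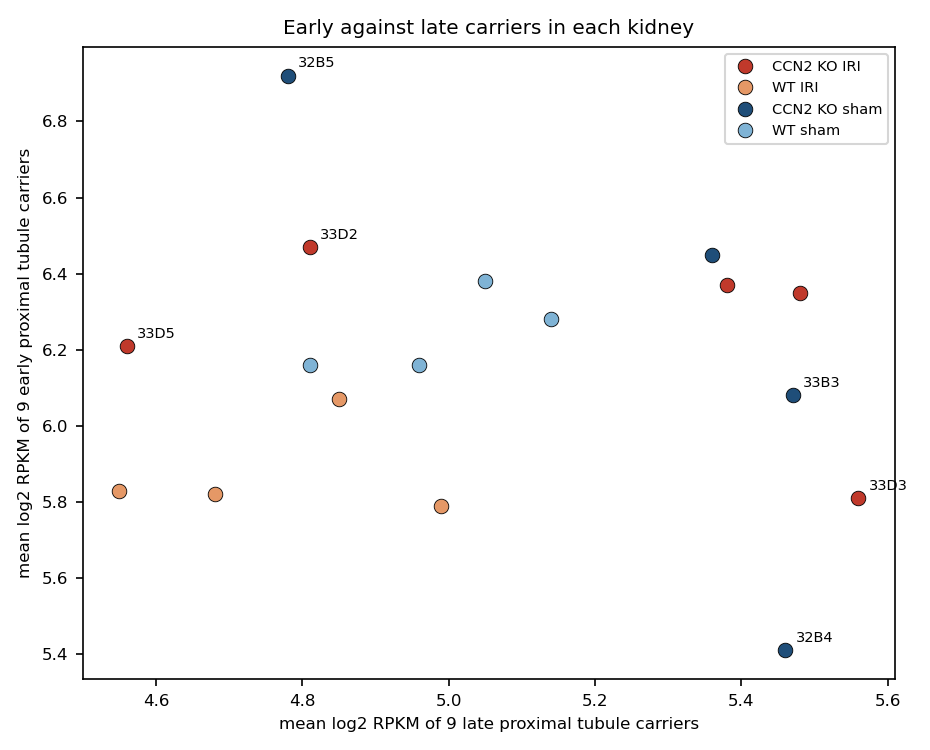
Mean log2 RPKM of the 9 early carriers (vertical) against that of the 9 late carriers (horizontal) in each of 17 kidneys, coloured by group, with the outlying ones named. The CCN2 KO sham kidneys 32B5 (6.92 early, 4.78 late) and 32B4 (5.41 early, 5.46 late) lie at opposite corners.

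Partners and regulators of the carriers were followed from lists chosen with the class. Of 16 brush border partners, 6 were higher and none lower in CCN2 KO IRI than in WT IRI, where 7.19% and 5.07% of all genes were, with a median of 0.28. They include Pdzk1, the scaffold of many apical carriers, at 0.35 (SE 0.08, adjusted p = 0.0168), and Slc9a3r2, a scaffold of NHE3, at 0.75 (SE 0.21, adjusted p = 0.0308). In WT IRI over WT sham 4 were lower and 3 higher, against 20.3% and 19.5% of all genes. Pdzk1 fell by 0.36 and Slc9a3r2 by 1.10, and Ezr, which links them to actin, rose by 1.53 (SE 0.11, adjusted p = 1.47e-07). Among CCN2 KO kidneys 3 were higher after IRI and none lower, against 14.3% and 13.2% of all genes. Of 11 genes for the sodium pump, water and chloride paths and carbonic anhydrases, 5 were higher in CCN2 KO IRI than in WT IRI and none lower, read against the same 7.19% and 5.07%. Aqp1, the tubule's water channel, was higher by 0.60 (SE 0.14, adjusted p = 0.014).

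Of 12 transcriptional regulators of the proximal tubule, 6 were lower and 2 higher in WT IRI over WT sham, where 20.3% and 19.5% of all genes were, with a median of −0.57. Among CCN2 KO kidneys 3 were lower and 1 higher after IRI, where 13.2% and 14.3% of all genes were. Maf fell in WT IRI by 1.16 (SE 0.27, adjusted p = 0.00256). Hnf4a, a nuclear receptor required for proximal tubule maturation, averaged 7.94 ± 0.19 in CCN2 KO IRI (SD, n = 5) and 7.05 ± 0.42 in WT IRI (n = 4), a difference of 0.89 (SE 0.16, adjusted p = 0.00417). Vdr, the vitamin D receptor, was higher there by 0.79 (SE 0.16, adjusted p = 0.009). These 2 of 12 were the regulators called in that comparison, where 7.19% of all genes were higher and 5.07% lower. Of 8 hormone genes that control transport, 3 were lower in each IRI response, beside 13.2% of all genes in CCN2 KO and 20.3% in WT. Cyp24a1, which breaks down active vitamin D, was the only one higher in CCN2 KO IRI over CCN2 KO sham, by 2.50 (SE 0.49, adjusted p = 0.00157). None was higher in WT IRI over WT sham. In CCN2 KO sham over WT sham the 8 hormone genes ran from −1.70 to 1.28, with none called. What part the sham levels have in the Cyp24a1 rise was not tested. Kl, the co-receptor of FGF23, was the only one called in CCN2 KO IRI over WT IRI, higher by 0.61 (SE 0.16, adjusted p = 0.023). Cyp27b1, which makes active vitamin D, fell by 2.27 in CCN2 KO IRI (SE 0.42, adjusted p = 0.00103) and by 2.42 in WT IRI (SE 0.44, adjusted p = 0.000404). None of the regulators or hormone genes was called in the difference of responses.

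Nutrient carriers found in most cells mostly rose upon IRI. Of 14, 10 were tested. In WT IRI 8 rose and 2 fell with a median of 1.65, where 19.5% and 20.3% of all genes did. In CCN2 KO IRI 8 rose and 1 fell with a median of 1.29, where 14.3% and 13.2% of all genes did. Slc20a1, the relative of Slc20a2, rose by 2.04 in CCN2 KO IRI (SE 0.29, adjusted p = 0.000149) and by 2.90 in WT IRI (SE 0.31, adjusted p = 3.16e-06). It was lower in CCN2 KO IRI than in WT IRI by 1.27 (SE 0.29, adjusted p = 0.014), as was Slc38a2, a glutamine carrier, by 0.94 (SE 0.24, adjusted p = 0.0219). The 217 other genes tested whose symbols start with Slc or Slco and a digit include these nutrient carriers and the scaffold Slc9a3r2. Of the 217, 30 were lower (13.8%) and 33 higher (15.2%) in CCN2 KO IRI over CCN2 KO sham. In WT IRI over WT sham 61 were lower (28.1%) and 32 higher (14.7%), beside 27.1% and 6.25% of the carriers. In CCN2 KO IRI over WT IRI 8 were lower (3.69%) and 29 higher (13.4%), beside 0% and 14.6% of the carriers. The median there was 0.16, beside 0.20 for the 48 carriers tested. Shares of all genes, lower and higher, were 13.2% and 14.3% in CCN2 KO and 20.3% and 19.5% in WT. Between the IRI groups they were 5.07% and 7.19%.

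Markers of other cells moved with these comparisons. Of 8 tubular injury markers, 7 were higher upon IRI under each label, against 14.3% of all genes in CCN2 KO and 19.5% in WT. None was called in CCN2 KO IRI over WT IRI. Havcr1 averaged 4.89 ± 1.03 in CCN2 KO IRI (SD, n = 5) and 5.36 ± 0.32 in WT IRI (n = 4). Between the IRI groups, 7.19% of all genes were higher in CCN2 KO. So were 4 of 7 thick ascending limb, 3 of 6 endothelial, 3 of 5 fibroblast and 2 of 5 distal convoluted tubule markers. Their summed levels ran from 695 to 1400 RPKM in CCN2 KO IRI and from 251 to 507 in WT IRI for the thick ascending limb, and from 31.9 to 42.2 and 13.1 to 31.4 for endothelium. For fibroblasts the ranges were 16.1 to 28.7 in CCN2 KO IRI and 5.43 to 13.2 in WT IRI, and for the distal convoluted tubule 330 to 544 and 172 to 267. No podocyte or leukocyte marker tested was called, and 1 of 8 collecting duct markers was lower, where 5.07% of all genes were. Proximal tubule enzymes summed to between 36200 and 53900 RPKM in CCN2 KO IRI and between 30100 and 67000 in WT IRI, with 1 of 14 called. Their median log2 ranged from 8.77 to 9.15 and from 8.77 to 9.04. The sum thus rests mostly on the highest of them and does not measure proximal tubule content. Between WT IRI and WT sham kidneys, summed levels ran from 251 to 507 RPKM in WT IRI and from 381 to 614 in WT sham for the thick ascending limb, and from 172 to 267 and 345 to 477 for the distal convoluted tubule. For endothelium they were 13.1 to 31.4 in WT IRI and 25.5 to 49.6 in WT sham, for the collecting duct 319 to 384 and 271 to 341, and for proximal tubule enzymes 30100 to 67000 and 22100 to 53600. Medians of the last lists went the other way. The collecting duct median log2 averaged 4.36 in WT IRI and 5.03 in WT sham. For the enzymes it averaged 8.90 and 9.03, while log2 of their sum averaged 15.35 and 15.16 (SD 0.49 and 0.54). What part these shifts have in the carriers' differences was not tested. Over all genes, CCN2 KO IRI over WT IRI ran from a median of −0.14 in the lowest quartile of genomic span to 0.09 in the highest. The carriers' medians lay there between 0.19 and 0.26 in all 4 quartiles. In WT IRI over WT sham the median ran from −0.53 over 5 carriers in the lowest quartile to −0.14 over 11 in the highest, and over all genes from −0.14 to 0.06. In CCN2 KO IRI over CCN2 KO sham it was 0.10 in the lowest and −0.03 in the highest, against −0.19 and 0.10 over all genes.

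Promoters were read to see what the carriers share in sequence. RefSeq promoter windows on GRCm38.p6, from 250 bases before to 50 bases after a start, were at hand for 40 of the 49 carriers. They were searched on both strands for sites of HNF1 and HNF4, factors known to drive proximal tubule genes. The HNF1 site, taken as GTTAAT, 1 free base and its reverse complement with up to 2 mismatches, was found in 6 of 40 carriers and in 1.56% of the other 26985 genes. The single motif GTTAAT, which overlaps the full site, was found in 8 of 40, against 8.23%. The HNF4 core CAAAGTCCA was found in 1 carrier, against 0.552%, and a direct repeat of AGGTCA spaced by 1 base, with up to 2 mismatches, in 6, against 4.39%. A match is a description of letters and not a bound site. The 6 HNF1 matches are shown with 6 bases on each side, 5′ to 3′ on the gene's strand, the match in capitals. In WT IRI, Slc13a2, Slc7a9 and Slc22a30 fell, Slc10a2 rose, and Slc6a13 and Slc17a1 were not called. Among all tested carriers 13 of 48 were lower there (27.1%), against 20.3% of all genes. Whether a match goes with the IRI response was not tested.

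Slc10a2, chr8:5105493-5105517, minus strand: cctggcATTAATTATTAACgtggct
Slc6a13, chr6:121300659-121300683, plus strand: ggctgcGTTACTCATTAACctcagg
Slc13a2, chr11:78422269-78422293, minus strand: gggtggGTCAATGGTTAACactcct
Slc17a1, chr13:23870206-23870230, plus strand: tgtaaaGTTAAACATTAAGcattac
Slc22a30, chr19:8405147-8405171, minus strand: ttaaaaGTAAATTTTTAACaaattc
Slc7a9, chr7:35449005-35449029, plus strand: tgggtgTTTAATAATTACCtctgtt

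The Slc10a2 and Slc6a13 matches have 1 mismatch and the other 4 have 2. The promoters of Slc3a1 and Slc9a3 follow as a contrast of the kinds of promoter in the set. That of Slc3a1 has 46.3% G and C, and its capitals mark the HNF4 core, at positions −39 to −31 from the start, and the single HNF1 motif at 2 to 7. That of Slc9a3 has 68.7% G and C and none of the letters searched.

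Slc3a1, chr17:85028097-85028396, plus strand: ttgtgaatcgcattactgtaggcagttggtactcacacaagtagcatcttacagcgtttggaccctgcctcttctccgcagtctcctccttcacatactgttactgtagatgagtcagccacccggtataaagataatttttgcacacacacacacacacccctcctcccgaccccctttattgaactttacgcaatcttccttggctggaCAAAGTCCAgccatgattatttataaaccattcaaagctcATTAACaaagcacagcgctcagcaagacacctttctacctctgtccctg
Slc9a3, chr13:74121163-74121462, plus strand: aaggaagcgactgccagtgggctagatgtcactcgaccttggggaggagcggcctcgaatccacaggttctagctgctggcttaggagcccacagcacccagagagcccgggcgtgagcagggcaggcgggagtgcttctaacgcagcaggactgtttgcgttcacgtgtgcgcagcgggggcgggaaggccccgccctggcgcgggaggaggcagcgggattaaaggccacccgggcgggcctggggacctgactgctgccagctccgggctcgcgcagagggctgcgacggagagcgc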

How the data were processed

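Poly(A) RNA of 17 kidney cortex samples was made into libraries with a kit named as directional and sequenced as single-end reads of 75 bases. Per the labels and methods, the authors aligned reads with STAR 2.4.2a to GRCm38, took gene counts from HTSeq (0.6.1p1, union mode), turned these into RPKM in edgeR, and deposited quantile-normalized log2 RPKM. The annotation and the strand setting of the counting are not given in the sources used here. Quantile normalization gives every kidney the same distribution, so a shift of all genes would not be seen, and read steps are lost, so no count test was possible. The methods name 6 CCN2 KO IRI samples and the labels 5. A further 13 value columns that match no labelled sample were not used.

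Groups came from the labels. Genes above log2 0 in at least 4 samples (12608) entered 1 limma model of the 4 groups (limma 3.58.1, R 4.3.3, trended prior variance, Benjamini-Hochberg adjustment), tested first on simulated data. The difference of IRI responses is its interaction contrast. Carriers and gene lists were chosen with earlier results of these data known. Values are given in full for the 4 largest called changes in each direction of each comparison, for reference carriers of each class and for the untested carrier. Alternatives changed the filter, offset, prior variance, weights, samples fitted and title prefix, or left out kidneys. Gene positions and overlaps are from GENCODE M21 and promoters from RefSeq.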

Additional observations from a re-analysis of the deposited data

Results flagged for a closer look

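Within groups, 9 of 196 sets of 1 carrier in 1 group held a kidney far from the others by Dixon's criterion, in 8 carriers, where chance gives about 1 in 20. Among CCN2 KO IRI kidneys, 33D6 stood high for Slc9a3 (4.12) and Slc1a1 (5.20). In WT IRI, 33C4 was low for Slc5a8 (4.71) and 33C2 high for Slc26a1 (5.59). In CCN2 KO sham, 32B5 was low for Slc5a8 (4.73) and Slc7a13 (7.11), and 32B4 low for Slc13a2 (4.71). In WT sham, 32A2 was high for Slc16a9 (5.69) and 32A1 for Slc7a7 (6.31).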

How the results depend on the processing

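No call changed direction in the alternatives run, but 2 medians near 0 changed sign. Fitted on its own groups, WT IRI over WT sham called 26 carriers, against 16. In CCN2 KO IRI over CCN2 KO sham, with 11 called, the count was 2 with no filter on low values, 4 with its own groups alone and 7 with title prefix as a covariate. The median there, −0.01, was −0.15 with sample weights, −0.14 with the prefix covariate, −0.20 with prefix 33 alone and −0.20 without 32B4 and 32B5, a choice made after seeing the data. In CCN2 KO IRI over WT IRI, with 7 called, the count was 2 with no filter, 4 without a trend in the prior variance, 19 with sample weights, 14 with prefix 33 alone and 13 without 32B4 and 32B5. The sham median, −0.03, was 0.13 with prefix 33 alone, 0.06 without 32B4 and 32B5 and 0.04 with sample weights. Leaving out 1 kidney, it ran from −0.13 (without 33B4) to 0.07 (without 32B4) and was also above 0 without 32B5. The CCN2 KO IRI over CCN2 KO sham median ran from −0.07 (without 32B4) to 0.09 (without 33D5), and was also above 0 without 33B3, 33B4, 33D2 or 33D3. The difference of responses, with none called, gave 1 with a filter on the mean, 1 with log2(RPKM + 1) and 3 with sample weights. Leaving out 1 kidney at a time gave 13 to 20 calls in WT IRI over WT sham and 6 (without 33D4) to 12 in CCN2 KO IRI over CCN2 KO sham. It gave 3 (without 33C4) to 10 in CCN2 KO IRI over WT IRI, and 0 to 2 (without 33D3) in the difference of responses. The cause of these shifts was not tested. Each setting can also change how many of all genes are called, and those shares are not given here. The counts of carriers above thus do not single out the carriers. No paired analysis was possible because the groups share no replicate numbers.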
